A study of Homo sapiens with 8 samples.

Results

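Peaks of Ago2 binding that the authors' table assigns to 5' untranslated regions (5' UTRs) numbered 1115 of 22506 peaks (4.95%), and all rows of that class were taken. Ago2, an Argonaute protein, was pulled down with its crosslinked RNA (CLIP) from 293S cells, which derive from HEK293, a line of human embryonic kidney cells. One group received 20 µg/mL emetine, a plant alkaloid that blocks translation elongation, for 60 minutes, and the other received no treatment. Each treatment was 1 culture, divided into 3 aliquots for CLIP with Ago2 antibodies of 3 manufacturers (Abnova, Santa Cruz and Sigma) and 1 aliquot for RNA-seq. The comparison asks how Ago2 occupancy differs when elongation is blocked. Every p-value below measures the spread between aliquots of 1 culture, which also differ in antibody, and not the spread between cultures.

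Argonaute proteins carry microRNAs, whose seed (bases 2 to 8) pairs with matching sites in messenger RNA. Most sites studied in animals lie in 3' UTRs, since scanning and elongating ribosomes can displace Argonaute from the 5' UTR and the coding sequence. The 5' UTR is the stretch that the small ribosomal subunit crosses on its way to the start codon, and it can hold upstream open reading frames and stable structures. Emetine acts on the elongating ribosome, which crosses the coding sequence and any upstream reading frame.

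The table holds no column per library, but whole reads for each of the 6 CLIP libraries could be recovered for 1113 of the 1115 peaks. The peaks of GPR64 and SEMA3C were not recovered. Libraries are numbered 1 to 3 within a treatment by the falling weight of a read in the authors' normalisation, so library 1 has the fewest reads; which antibody a number stands for is unknown. Over all recovered peaks, libraries 1 held 40753 reads with emetine and 39633 without. The other libraries held between 96940 and 117624 reads. Recovered RNA reads came to 3769385 with emetine and 1561586 without. They cover only 6319 genes with listed peaks and are not the full depth of the RNA libraries. Of 10 marker genes of HEK293-type cells, 5 had peaks, among them NEFL and PEG10 in the 5' UTR, while 0 of 14 markers of other cell types had a peak anywhere.

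The microRNAs whose seeds were looked up, and stretches of 5' UTRs that hold a match, are shown here because seed pairing is the known route by which Ago2 reaches a transcript. MicroRNA sequences are from RefSeq (GRCh38.p14), written 5' to 3' with the seed in capitals. The 5' UTR stretches are from GENCODE 29 transcripts on GRCh38, with the 7-letter match to the seed in capitals; each is the match in the 5' UTR whose peak had the most normalised reads among matching members for that family. The peaks are on hg19, so whether a match lies inside its peak was not determined.
hsa-miR-16-5p: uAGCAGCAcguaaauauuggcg
XPO1 match to miR-15/16: tgttccagtcttTGCTGCTgcagtccgtgc
hsa-miR-196a-5p: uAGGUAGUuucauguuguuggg
ZDHHC5 match to miR-196: ggcattgagaagACTACCTaaaagagacaa
hsa-miR-19a-3p: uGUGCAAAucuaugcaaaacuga
TULP4 match to miR-19: actctggtctgtTTTGCACggtttgtgtgc
hsa-let-7a-5p: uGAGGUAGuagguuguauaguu
HMGA2 match to let-7: ctcctcctcttgCTACCTCcacctccaccg
hsa-miR-17-5p: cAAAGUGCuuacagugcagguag
SMAD6 match to miR-17: ggccaccgggagGCACTTTtgtggaggggg
hsa-miR-7706: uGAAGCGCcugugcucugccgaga

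The 5' UTR match to miR-15/16 (TGCTGCT, sense strand of the transcript) was present in 54 of 750 transcripts with a 5' UTR peak (7.20%) and in 4.06% of 5367 transcripts of genes without one. Members have longer 5' UTRs, and per kilobase the density was 0.21 against 0.18 matches. Within the first 150 nt of those 5' UTRs that are at least as long, it was present in 4.64% of 603 against 2.50% of 3162. For miR-19 (TTTGCAC) the shares in the same first stretch were 0.995% and 0.411%. For let-7 (CTACCTC) they were 0.498% and 0.569%. Of 15 seed families, 11 had a higher density per kilobase in members and 4 a lower one; over the first 150 nt, 7 were more frequent in members and 8 less frequent. The other matches searched were GCACTTT (miR-17), GCACCTT (miR-18), GTGCAAT (miR-92), TGTTTAC (miR-30), ATGCTGC (miR-103), ACAGGGT (miR-10), ATAAGCT (miR-21), GTACTGT (miR-101), TGCACTG (miR-148), GTCTTCC (miR-7), ACTACCT (miR-196) and ACACTCC (miR-122, a liver microRNA), on the sense strand only. Those of let-7 and miR-196 share CTACCT, and those of miR-15/16 and miR-103 share TGCTGC, so a stretch can hold both. These are counts of letters over whole 5' UTRs, and no binding at them was measured.

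The 1115 peaks lay in 770 genes and 803 listed transcripts. A single 5' UTR peak was listed in 563 genes (73.1%), and 207 genes had more. XPO1, the nuclear export receptor for proteins with leucine-rich export signals, had 14. AHSA2, GIGYF1 and GABBR1 had 7 each, ZNF580, GNAS and MIDN 6 each, and 7 genes, among them NUCKS1, had 5 each. GIGYF1 is a partner of a cap-binding repressor of translation, GABBR1 a subunit of the GABA-B receptor and GNAS the stimulatory G protein alpha subunit. Only 5' UTR peaks were listed for 163 genes (21.2%), while 467 also had coding peaks, 472 also had 3' UTR peaks and 334 had both.

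The peaks were wider than those in the coding sequence or the 3' UTR. The listed end minus the listed start had a median of 34 nt (quartiles 26 and 49), against 27 nt for coding, 31 nt for 3' UTR and 43 nt for noncoding exon peaks. At least 50 nt were spanned by 24.1% of 5' UTR peaks, 7.93% of coding, 10.6% of 3' UTR and 39.7% of noncoding exon peaks. Neighbouring 5' UTR peaks of a transcript overlapped or touched in 154 of 312 pairs (49.4%), against 679 of 3584 pairs in coding sequence (18.9%) and 18.5% of pairs in 3' UTRs. In XPO1 the 14 peaks spanned chr2:61764709-61765314 (hg19, minus strand), were 25 to 64 nt wide, and overlapped or touched in 9 of 13 neighbouring pairs. Sums over the peaks of a gene can therefore count some reads more than once.

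**Figure D1:**
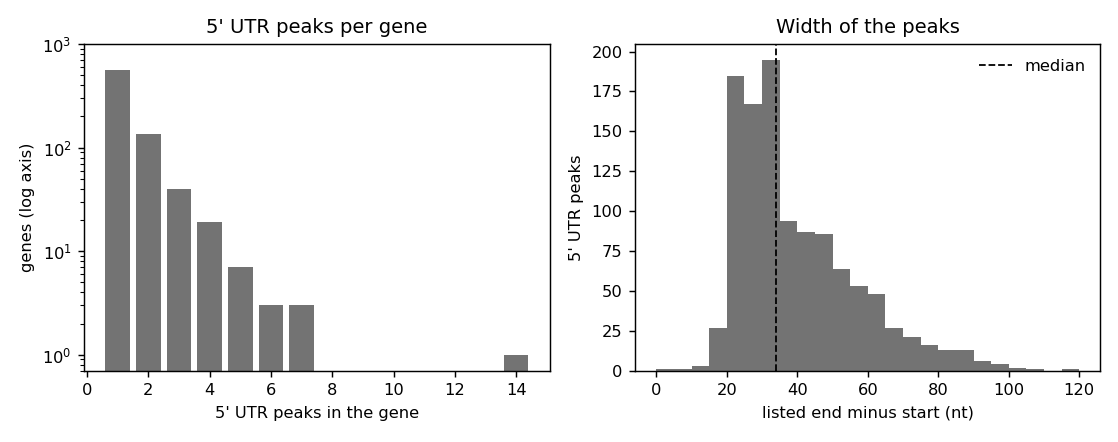
Left, number of genes (log axis) by the count of 5' UTR peaks they carry; right, histogram of the width of the 1115 peaks in nt, with the median of 34 nt dashed. Most genes (563) carry 1 peak, XPO1 stands alone at 14, and widths reach 120 nt.

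Transcripts with a 5' UTR peak had longer annotated 5' UTRs than other transcripts in the table. Of the 803 listed transcripts 767 matched GENCODE 29, and 753 of them have an annotated 5' UTR. Their 5' UTR length had a median of 301 nt (quartiles 175 and 479), against 183 nt (94 and 307) for 5434 transcripts of genes without a 5' UTR peak. A peak was listed for 5.44% of transcripts with a 5' UTR under 100 nt, 8.32% from 100 to under 200 nt, 13.2% from 200 to under 400 nt and 23.4% from 400 nt up. The median GC content was 65.4% in members and 67.8% in the others. An upstream ATG was present in 61.5% and 50.5% of the 5' UTRs, while the pooled density was 6.13 and 5.88 ATG per kilobase. A longer 5' UTR offers more room for a peak, and no test was made of length, GC content or ATG count. The region class of a peak is the authors', and some peaks were wider than the matched GENCODE 29 5' UTR. HIST1H1E had a peak of 73 nt against a 5' UTR of 37 nt, HIST2H2BE 32 against 12 and RPS29 36 against 30. Such peaks cannot lie wholly within that annotated 5' UTR.

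**Figure D2:**
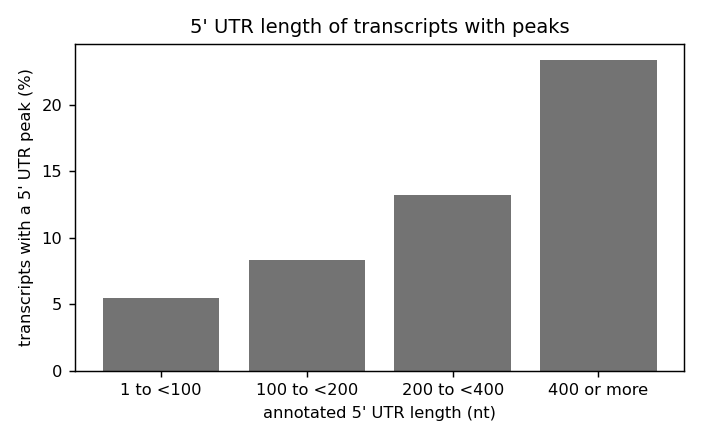
Share of transcripts with at least 1 listed 5' UTR peak (%), by annotated 5' UTR length in nt. The bars run from 5.44% under 100 nt to 23.4% from 400 nt up.

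The share of Ago2 reads in 5' UTR peaks differed between treatments by less than the spread of the libraries. With emetine, 7.03%, 3.76% and 4.09% of the reads in listed peaks lay in 5' UTRs in libraries 1 to 3. Without treatment the shares were 7.88%, 2.85% and 3.60%. The groups overlap, and library 1 was the highest in both. In these bulk samples less bound RNA per cell and fewer cells with the RNA cannot be told apart. The means were 4.96% ± 1.80 (SD, n = 3) and 4.78% ± 2.71 (SD, n = 3), a difference of 0.18 percentage points (two-sided exact permutation test p = 0.8, adjusted over 4 region classes 0.8). With 3 libraries against 3 this test cannot go below 0.1. Reads in overlapping peaks can count more than once in these shares. With identical peaks counted once the difference was 0.17, and no share was computed with overlapping peaks reduced to 1. The difference became -0.85 without emetine library 1, -0.78 without control library 2 and -0.41 without control library 3. With both libraries 1 left out, an alternative chosen after seeing the data, the means were 3.93% and 3.23%.

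The 5' UTR peaks drew more of their reads from library 1 of each treatment than coding and 3' UTR peaks did; this was described after it was seen and not tested. Wilson 95% intervals for the 5' UTR share, which cover counting error only, ran from 6.78% to 7.28% for the first emetine library and from 7.62% to 8.15% for the first control library. In the other 4 libraries the highest upper bound was 4.22%. Per peak, the part of the normalised reads that came from the libraries 1 had a median of 39.9% in 5' UTRs, 0% in coding sequence, 0% in 3' UTRs and 67.2% in noncoding exons. It was over 50% in 472 of the 5' UTR peaks (42.4%), against 13.1% of coding, 12.1% of 3' UTR and 68.3% of noncoding exon peaks. XPO1 held 8.28% of the 5' UTR reads of emetine library 1 and 6.18% of those of control library 1. Without XPO1 the 5' UTR shares of these libraries were 6.48% and 7.43%. All these shares and intervals add up every listed peak, so reads in overlapping peaks can count more than once. Overlapping or touching pairs were more frequent among neighbouring 5' UTR peaks (49.4%) than among coding (18.9%) or 3' UTR neighbours (18.5%).

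The same held within genes. In 607 genes with 5' UTR peaks and peaks elsewhere, the libraries 1 gave a median of 38.0% of the normalised 5' UTR reads and 19.0% of the reads of the other peaks. The 5' UTR part was higher in 382 genes, lower in 167 and equal in 58. It went with width: the median was 0% for 217 peaks under 25 nt, 21.4% for 360 from 25 to 34 nt, 58.0% for 267 from 35 to 49 nt and 73.6% for 269 of 50 nt or more (Spearman 0.56 over 1113 peaks, which share the same 6 libraries). In coding and 3' UTR peaks of the same widths the medians were 0%, 0%, 23.5% and 39.9%. The antibody, depth and handling of the libraries 1 cannot be told apart.

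**Figure D3:**
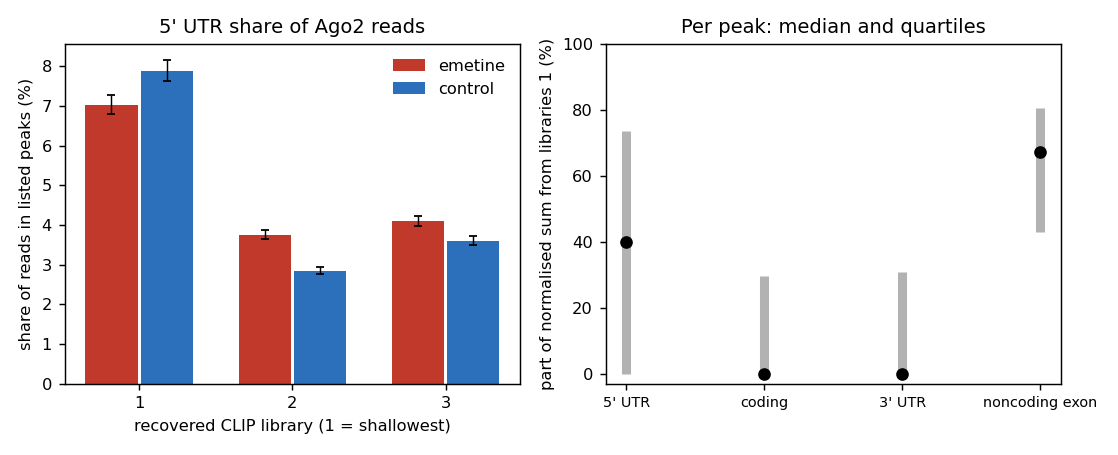
Left, share of the reads in listed peaks that lie in 5' UTRs (%) for each recovered CLIP library, with Wilson 95% intervals for counting error; right, part of each peak's normalised reads that came from libraries 1 of both treatments (%), as median (point) and quartiles (bar) by region. Libraries 1 stand at 7.03% and 7.88%, and the medians are 39.9% in 5' UTRs and 0% in coding and 3' UTR peaks.

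The deposited average is the CLIP level of a peak relative to the RNA level of its gene, here on a log2 scale. Its median was -8.08 in 5' UTRs (range -12.87 to 0.23), -8.78 in coding sequence, -8.41 in 3' UTRs and -10.71 in noncoding exons. Across the 1113 peaks the average was lower where the gene had more RNA reads (Spearman -0.90), which enter it as the divisor, and its correlation with the read sum of the peak was 0.25 (Spearman). The largest averages belonged to GPR161, an orphan receptor of the cilium, at 0.23, RELN at -0.16 and RPLP1 at -0.21. RELN had 8 and 7 RNA reads with and without emetine, and RPLP1 11 and 13. RPLP1, PPIA and ACTB have processed pseudogenes, so reads could be split between copies and these levels are uncertain.

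The 5' UTR peak with the most normalised reads was in AKAP13, which codes for an anchoring protein of protein kinase A (chr15:85923869-85923893, hg19, plus strand, 24 nt). Libraries 1 to 3 with emetine held 15, 60 and 76 of its reads, and those without held 17, 93 and 111. All 6 libraries held reads, and the groups overlap. The ratio of normalised read totals was 0.759 (95% exact binomial interval 0.613 to 0.938, counting error only). On the log2 scale the change was -0.30 with a standard error of 1.08 (limma, adjusted p = 0.964). In RefSeq on GRCh38.p14 the hairpin of MIR7706 occupies chr15:85380596-85380662 on the same strand and begins 7 bases before an annotated AKAP13 start. The 24 nt of mature hsa-miR-7706, printed above, begin 36 bases after that start. The table lists the peak on hg19, so peak and microRNA were not placed on 1 scale, and loading of this microRNA was not tested. Peak and mature microRNA are both 24 nt long. Whether the reads of this peak are the microRNA itself or AKAP13 messenger RNA bound by Ago2 was not determined. Of 27 genes whose RefSeq start region holds a microRNA hairpin, 15 had an Ago2 peak somewhere and 1, AKAP13, had one in the 5' UTR. Among all 6326 genes with a peak, 770 had one in the 5' UTR.

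XPO1 came next (chr2:61764867-61764908, minus strand). This peak had 63, 13 and 23 reads with emetine and 45, 0 and 8 in the control, and libraries 1 gave 88.2% of its normalised reads. Both libraries 1 were higher than the other 4. The ratio of depth-corrected read totals was 2.08 (interval 1.47 to 2.95). The limma log2 change was 2.55 with standard error 1.44 (adjusted p = 0.784). With 1 peak per overlapping group XPO1 had 147, 23 and 25 reads against 128, 0 and 26, and libraries 1 gave between 68.1% and 100% of the normalised reads of each peak. The deposited ratio was above 0 in 13 of the 14 peaks. These peaks overlap or touch in 9 of 13 neighbouring pairs and share the same libraries and RNA ratio, so they are not separate observations.

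Among the other peaks with large sums, ZDHHC5 and PPIA went in opposite directions in read totals. ZDHHC5 codes for a palmitoyltransferase (chr11:57439934-57439959, plus strand), and its peak had 3, 116 and 19 reads with emetine and 3, 60 and 4 in the control. The ratio of totals was 2.29 (interval 1.70 to 3.11). The reads lay mostly in library 2 of both treatments, and the groups overlap. PPIA, cyclophilin A (chr7:44836280-44836310, plus strand), had 13, 5 and 7 reads with emetine and 11, 70 and 63 in the control. Its ratio was 0.193 (interval 0.121 to 0.296), control libraries 2 and 3 being high. The limma adjusted p was 0.784 for both.

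The proteasome subunit PSMA7 had 38, 5 and 26 reads with emetine and 15, 6 and 7 in the control, a ratio of 2.74 (interval 1.74 to 4.41). The mitochondrial carrier SLC25A29 had 7, 9 and 8 against 30, 35 and 6, a ratio of 0.376 (interval 0.226 to 0.604). The groups overlap in both. The zinc finger gene ZNF771 (42, 9 and 11 reads against 29, 12 and 22) and MFHAS1 (33, 7 and 22 against 34, 7 and 13) had ratios of 1.09 and 1.28, with intervals that include 1. RELN, the secreted protein reelin, had 21, 5 and 8 reads against 29, 0 and 11. The nucleoside diphosphate kinase NME4 had 26, 0 and 1 against 27, 3 and 4. Its peak spanned 55 nt and its GENCODE 29 5' UTR 14 nt, so the peak reaches beyond that annotation. Of these 10 peaks, 7 drew over 50% of their normalised reads from libraries 1, 7 had reads in all 6 libraries, and 8 were 30 nt wide or less.

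**Figure D4:**
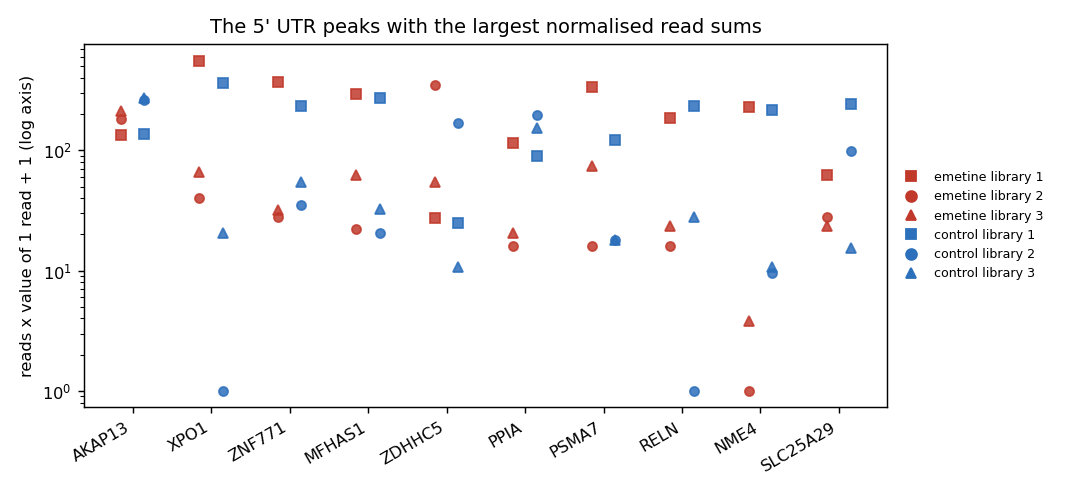
Normalised reads (reads times the value of 1 read, plus 1; log axis) of the 10 5' UTR peaks with the largest sums, for 3 emetine libraries (red) and 3 control libraries (blue), with library 1 as squares. Squares lie highest in both treatments in XPO1, ZNF771, MFHAS1, PSMA7, RELN, NME4 and SLC25A29, and the colours overlap in every gene.

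The deposited ratio of emetine to control, corrected by the RNA ratio of the gene, had a median of 0.25 on the log2 scale in 5' UTRs. It was above 0 in 614 peaks and below 0 in 501 (55.1% above). The medians were 0.30 in coding sequence, -0.17 in 3' UTRs, 0.63 in noncoding exons and 0.05 over all peaks. Ratios above 1 were found in 403 of the 5' UTR peaks (36.1%), near the 34.2% of all peaks, and ratios below -1 in 282 (25.3%), against 33.1% of all peaks. The median depended on single libraries: it was -0.25 without emetine library 1, -0.06 without control library 2 and 1.11 without control library 1. With both libraries 1 left out it was 0.48, next to 0.51 in coding sequence, -0.36 in 3' UTRs and 0.01 over all peaks.

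No single 5' UTR peak passed the test between treatments. By limma with Benjamini-Hochberg adjustment over all 22497 peaks, 0 of 1113 reached an adjusted p under 0.05 (background 0%), and the smallest was 0.784. Without adjustment, 11 peaks had a p under 0.05 and were higher with emetine (0.988%, background 0.769%) and 4 lower (0.359%, background 0.298%). All 3 emetine values lay above all 3 control values in 35 peaks (3.14%, background 2.55%) and below them in 9 (0.809%, background 1.43%). The median log2 change was 0.18, against 0.01 over all peaks, with a median standard error of 2.04. With limma-voom 0 peaks passed, the smallest adjusted p being 0.757. By limma with both libraries 1 left out 0 passed, the smallest adjusted p being 0.271.

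With peaks below the median average set aside, the largest deposited ratios were in FYN, H2AFY2, ACTB, DUSP9, NPM1, RPS16, SGK196 and NME2, all at 3.90 or more. FYN, a Src-family kinase, had 9, 3 and 15 reads with emetine and 0 in all 3 control libraries. Its depth-corrected read total was at least 10.0-fold higher when the control is put at 3 reads in all (the floor used here). The nucleolar chaperone NPM1 had 7, 3 and 18 reads against 1, 0 and 0, a ratio of 31.1 with a counting interval of 5.14 to 1272. The cytoskeletal actin gene ACTB had 1, 4 and 9 reads against 0, which is at least 5.19-fold higher by the same floor. In 6 of these 8 peaks the treatments did not overlap, and 4 had no control read. Both counts follow in part from picking peaks by a large ratio. Over all 22497 peaks, all emetine values lay above all control values in 2.55%. H2AFY2, a macroH2A histone variant, had 2, 2 and 7 reads against 0. DUSP9, a phosphatase of MAP kinases, had 3, 8 and 0 reads against 0, and only 9 and 8 RNA reads behind its deposited ratio.

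The most negative ratios were in ADM, HOXB3, P2RY1, PNMA2, CHID1, CARHSP1, PRCC and CHPF2, all at -3.18 or less. HOXB3, a homeobox transcription factor, had no read with emetine and 1, 14 and 8 without, at least 6.90-fold lower by the floor. ADM codes for the vasodilator peptide adrenomedullin; one of its peaks had 0 emetine reads and 4, 0 and 10 control reads. Another ADM peak had 1, 4 and 14 emetine reads and 0 control reads. The 2 peaks touch (chr11:10326686-10326713 and chr11:10326713-10326747, hg19), so adjoining parts of 1 stretch differed in opposite directions. They are not shown to be separate sites. The RNA of ADM was at 210 reads with emetine and 33 without, a log2 ratio of 1.32. PRCC had 2, 22 and 0 control reads and no emetine read, 22 of them in 1 library. In 3 of these 8 peaks the treatments did not overlap, and 7 had no emetine read. These counts too follow in part from the choice by ratio. Over all 22497 peaks, all emetine values lay below all control values in 1.43%.

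**Figure D5:**
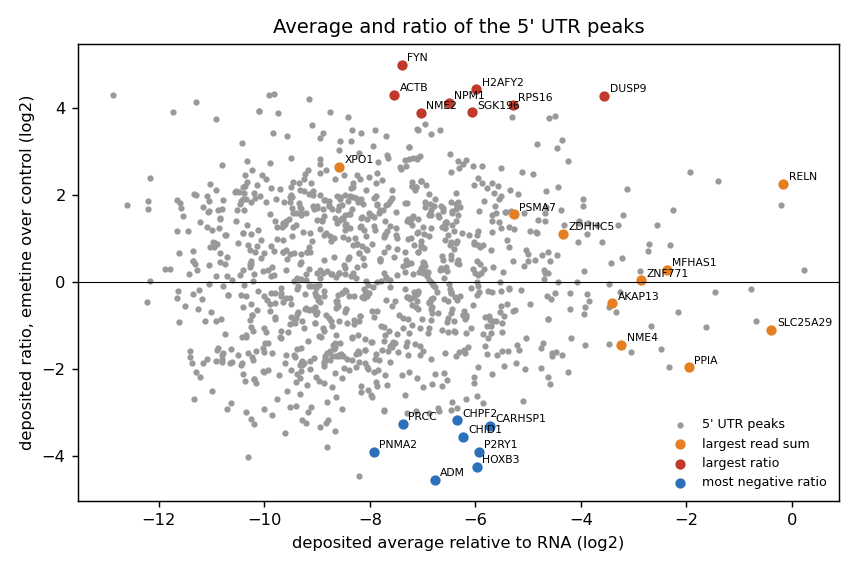
Deposited ratio of emetine to control (log2) against the deposited average relative to RNA (log2) for the 1115 5' UTR peaks (grey), with the peaks of the largest read sums (orange), largest ratios (red) and most negative ratios (blue) named. Peaks lie on both sides of 0 across most of the range; FYN is highest and ADM lowest, at -4.56.

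Summed per gene, 5' UTR reads passed in 0 of 768 genes (limma, adjusted over 8980 sums of genes and regions; background 0%), with the smallest adjusted p at 0.757. At an unadjusted p under 0.05, 8 sums were higher (background 1.12%) and 1 was lower (background 0.724%). Those with the smallest p were SCD, HSPA1B, RHOB, XPO1, HSPA1A, CUL1, TXNIP and DDX3X, higher, and KBTBD2, lower; this naming was made after their values were seen. In SCD, the stearoyl-CoA desaturase, 2 of the 3 peaks overlap and hold identical reads, so its reads are given with 1 peak per overlapping group: 10, 17 and 16 in emetine libraries against 2, 0 and 0 (ratio 23.9, counting interval 6.22 to 204). The GTPase RHOB had 7, 27 and 42 against 1, 0 and 7 (ratio 10.6, interval 5.09 to 25.3). TXNIP, an inhibitor of thioredoxin, had 2, 27 and 20 against 1, 0 and 0, and the RNA of TXNIP was itself at 573 and 54 reads, a log2 ratio of 2.06. KBTBD2 had no emetine read and 2, 23 and 8 control reads, at least 9.90-fold lower by the floor.

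Within 607 genes, the change of the 5' UTR reads was set against the change of the reads in the other peaks of the same gene. By limma on this difference 0 genes passed, the smallest adjusted p was 0.989, and the median difference was 0.07. These 607 genes are all that were tested, so the background (0%) is the same genes and gives no comparison. At an unadjusted p under 0.05 the 5' UTR was the higher in 11 genes (1.81%) and the lower in 9 (1.48%). The 6 smallest p belonged to HOXB3, TAF1D, SCD, SRSF3, PCNA and PVR. In HOXB3 the other peaks had 9, 52 and 48 reads with emetine and 4, 3 and 16 in the control, while the 5' UTR peak had reads in the control only. In SCD the other peaks had 29, 38 and 24 against 20, 95 and 120, while the 5' UTR reads were mostly from emetine libraries. In SRSF3, a splicing factor of the SR family, the wider of a pair of overlapping 5' UTR peaks had 5, 20 and 21 against 5, 0 and 6, and the other peaks had 0 against 1, 33 and 5. PCNA, the sliding clamp of replication, had 0, 3 and 24 5' UTR reads against 2, 12 and 5 with 1 peak per overlapping group, and 39, 90 and 62 against 3, 1 and 5 elsewhere.

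By function, 5' UTR peaks made up a larger part of the peaks of some gene lists than the 4.95% of all peaks. The deposited ratio includes the RNA ratio of 1 library per treatment. In each of the lists below the adjusted p of every peak was above 0.05, and medians are of the deposited log2 ratio, next to 0.25 for all 5' UTR peaks. Cytosolic ribosomal protein genes had 19 of their 133 peaks in the 5' UTR (14.3%), in 15 of 57 genes, with 10 ratios above 0 and 9 below (median 0.21). Without the RNA ratio, the log2 change of their reads was above 0 in 8 and below in 11 (median -0.23). RPLP1 had 4, 16 and 19 reads with emetine and 4, 23 and 11 in the control, and RPL38 had 3, 11 and 1 against 8, 2 and 5. The treatments overlap in both. Histone genes of the replication-dependent class had 14 peaks there (13.1% of the list's peaks), 11 above 0 and 3 below (median 0.69). For the reads alone, without the RNA ratio, 12 log2 changes were above 0 and 2 below (median 0.98). HIST1H1E, a linker histone, had 3, 9 and 15 reads against 5, 3 and 34. HIST1H3D had 0, 26 and 8 against 0, 0 and 2. Histone genes share sequence, so these reads are uncertain between copies.

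Splicing factors of the hnRNP and SR families had 26 of 230 peaks in the 5' UTR (11.3%) over 13 of 32 genes, 17 above 0 and 9 below (median 0.35). The log2 change of their reads alone was also above 0 in 17 and below in 9 (median 0.53). HNRNPA2B1 had 23, 5 and 18 reads with emetine and 8, 14 and 20 in the control, a ratio of 1.22 with an interval of 0.783 to 1.90. Heat shock proteins and chaperonins had 10 of 154 peaks (6.49%), 8 above 0 and 2 below (median 1.57). For their reads alone the counts were again 8 and 2 (median log2 change 2.03). HSPA1B and HSPA1A, a near-identical pair of inducible Hsp70 genes, carried the most reads. Counting 1 peak per overlapping group, HSPA1B had 16, 32 and 58 reads against 0, 12 and 50, and HSPA1A 20, 18 and 37 against 9, 0 and 20. Their sequences are shared, so the split between them is uncertain, and the RNA log2 ratios were 0.76 and 0.50.

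Messenger RNAs with regulatory upstream reading frames, which elongating ribosomes cross, had 8 of 95 peaks in the 5' UTR (8.42%) over 5 of 11 genes, 3 above 0 and 5 below (median -1.35). The log2 change of the reads without the RNA ratio was above 0 in 3 and below in 5 (median -1.20). ATF4, the transcription factor of the stress response whose upstream frames gate its translation, had 1, 15 and 0 reads with emetine and 0, 0 and 1 in the control. MDM2, the ubiquitin ligase of p53, had 0, 0 and 4 against 1, 12 and 3. ODC1, which starts polyamine synthesis, had 0, 10 and 0 against 1, 0 and 4, and AMD1 of the same pathway 6, 0 and 4 against 1, 0 and 1. Reads of ATF4 and ODC1 came mostly from 1 library. The iron-responsive list had 1 peak, in the ferritin gene FTH1, with 0, 3 and 1 reads against 4, 0 and 3.

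Initiation and elongation factors had 12 of 156 peaks in the 5' UTR (7.69%), 10 above 0 and 2 below (median 0.24), while the log2 change of the reads alone, without the RNA ratio, was above 0 in 6 and below in 6 (median 0.01). EEF2, the translocation factor, had 1, 3 and 15 reads against 1, 0 and 1. Immediate early and short-lived messenger RNAs had 12 of 201 (5.97%), 9 above 0 and 3 below (median 0.63). Without the RNA ratio, the log2 change of these reads was above 0 in 10 and below in 2 (median 1.62). A peak of RHOB had 6, 15 and 39 reads against 1, 0 and 7, without overlap, and BTG2, an antiproliferative gene, 1, 30 and 8 against 1, 13 and 3. Growth regulators with structured 5' UTRs had 7 (4.61% of the list's peaks), and CDK6 had 8, 1 and 2 reads against 5, 0 and 2. Zinc finger genes named ZNF had 42 of 577 (7.28%), 26 above 0. Proteasome subunits had 4 of 54 (7.41%) and mitochondrial ribosome and respiratory chain genes 8 of 149 (5.37%). The Argonaute and microRNA machinery had 4 of 189 (2.12%), in TNRC6C, DICER1 and DROSHA.

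RNA ratios of the genes with 5' UTR peaks were centred like those of other genes: over 720 such genes with at least 50 reads the median log2 ratio was 0.01, and over the 5086 other genes it was 0.01. The authors' scaling centres these ratios, so they show differences between genes and not the overall RNA level. The ratio was above 1 in 9 (1.25%, background 0.844%) and below -1 in 4 (0.556%, background 0.792%). There was 1 RNA library per treatment, so these ratios have no replicate check. The highest were TXNIP at 2.06, ADM at 1.32, CA11 at 1.29 and JUN, a subunit of AP-1, at 1.28, with 1391 reads with emetine and 225 without. The lowest was PABPN1, the nuclear poly(A)-binding protein, at -1.41, with 35 and 37 reads. A 5' UTR peak of PABPN1 had 0 emetine reads and 8, 1 and 9 control reads.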

How the data were processed

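The authors deposited 1 table, with a natural log average and a natural log ratio of emetine to control per peak; the log base was found from the values, and log2 values are these divided by the natural log of 2. Per the submitters' processing notes the build was hg19; they also name DESeq, TopHat and Bowtie 0.12.8 without saying what each did. The peak caller and the start convention were not given in the sources used here; listed coordinates were kept. Average plus or minus 0.5 times the ratio gives a treatment's value, which is ln(1 + reads × value of 1 read) averaged across its 3 CLIP libraries, less that term for RNA. Whole reads satisfying this within 2e-13 were recovered for 22497 of 22506 peaks (99.96%). Shifted values found a match for 14 (emetine) and 5 (control) of 2528 peaks. Reads per peak over all libraries were at least 11. For libraries 1 to 3, a read counted as 8.86, 3.00 and 2.81 with emetine and as 8.00, 2.82 and 2.43 without; an RNA read counted as 2.51 and 6.37.

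Peaks were tested with limma 3.58.1 (trend, R 4.3.3) on log2(reads × value of 1 read + 1), without a filter, over the whole table. Changes on this scale understate those of low peaks. For region shares, exact permutation tests were used (scipy 1.17.1). Ratios of totals carry exact binomial 95% intervals; a total of 0 was replaced by a floor of 3 reads. The design had assumed counts or normalised values per antibody. The table has neither, so treatment alone was fitted, with the library number as a block in an added alternative.

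Genes named were the 10 largest normalised read sums, the 8 largest and 8 most negative ratios at or above the median average, the 8 genes with most peaks (ties by normalised reads), the 6 smallest p against the rest of the gene, and up to 4 per list (15 lists) with the largest sums. Members and lists were chosen with earlier results of these data known. Of 26 microRNA names, 23 matched RefSeq; hsa-miR-10b-5p, hsa-miR-30d-5p and hsa-miR-124-3p did not. Of the 770 genes 660 matched the promoter table. Alternatives were the added constant (0.5 and 5), library totals as scaling, limma-voom, filters, identical peaks counted once, noncoding peaks left out, and each library left out. The limma and recovery steps were tested on simulated data.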

Additional observations from a re-analysis of the deposited data

How the results depend on the processing

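The counts of 5' UTR peaks, 5' UTR gene sums and genes against the rest past the adjusted threshold stayed at 0 under every alternative run. With each library left out they ranged from 0 to 0. Over the libraries left out, the difference in 5' UTR read share ranged from -0.85 to 1.73 percentage points and the median deposited ratio from -0.25 to 1.11 (log2). The share difference turned negative without emetine library 1 (-0.85) and without either of control libraries 2 (-0.78) and 3 (-0.41). The median ratio was -0.25 without emetine library 1, -0.06 without control library 2, 0.41 without emetine library 2, 1.11 without control library 1 and 0.48 without both libraries 1, where the median average moved from -8.08 to -8.35; both of these rebuilt alternatives were chosen after seeing the data, and the cause was not tested. Among peaks with large sums the log2 change crossed 0 in ZNF771 (-1.35 to 0.67), MFHAS1 (-0.61 to 1.51), RELN (-0.96 to 2.97) and NME4 (-3.84 to 0.083); it turned in ZNF771 without emetine library 2 (0.52), emetine library 3 (0.43) or control library 1 (0.67), in MFHAS1 without emetine library 1 (-0.61), control library 2 (-0.35) or control library 3 (-0.02), in RELN without control library 2 (-0.96) and in NME4 without emetine library 2 (0.083). AKAP13 (-0.62 to -0.12), PPIA (-2.94 to -1.51), SLC25A29 (-2.16 to -0.19), XPO1 (0.40 to 4.65), ZDHHC5 (0.12 to 2.30) and PSMA7 (0.02 to 2.22) kept their direction with each library left out. No antibody could be assigned to a recovered library, so pairs could be formed only by library number. Deviations from the treatment mean correlated at 0.15, 0.04 and 0.04 (Pearson, across peaks) for same-numbered libraries 1 to 3, each library best with its own number, a hint from the data and not from the design. With the library number as a replicate block, chosen after seeing the data, the share difference was 0.18 (exact sign-flip permutation p = 0.75). For 5' UTRs, 0 single peaks, 0 gene sums and 0 genes against the rest passed. Their peaks with an unadjusted limma p under 0.05 went from 11 to 29 higher and from 4 to 7 lower. Their gene sums went from 8 to 18 and from 1 to 4. The counts rose in the background too, so the rise was not particular to 5' UTRs. Over all 22497 peaks they went from 173 to 421 higher and from 67 to 217 lower. Over all 8980 gene sums they went from 101 to 208 and from 65 to 132. With the block, 3 peaks and 2 gene sums of all regions passed. With 1 peak per overlapping group, also chosen after seeing the data, 0 gene sums passed. A peak held a median of 14 reads over 6 libraries; the median standard error was 2.04 on the log2 scale and 1.86 with the block.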
